A study of Mus musculus with 16 samples.

Results

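*Prl*, *Drd2* and *Prlr*, the genes for prolactin, the dopamine D2 receptor and the prolactin receptor, were followed through 16 bulk RNA-seq libraries of mouse pituitary. These 3 genes were picked by name from the 17362 genes listed, and all 3 were present and passed the filter on low values that left 14345 genes for testing. Each library came from 1 female mouse aged 27 weeks, with 4 mice in each of 4 groups. Controls, labelled Ctrl and homozygous for a floxed *Esr1* allele (*Esr1*fl/fl), were fed standard diet (SD, labelled CHOW) or high-fat diet (HFD) for 17 weeks. Mutants, labelled Esr1Nkx2-1Cre, carried the same floxed allele and lost *Esr1*, the gene for oestrogen receptor-α, wherever *Nkx2-1* had driven Cre, and were fed the same diets. All mice shared a mixed CD-1;129P2 background, and *Nkx2-1* is known to be expressed in the developing hypothalamus and posterior pituitary rather than in the hormone cells of the anterior lobe. The question is how the main transcript of the lactotroph, its inhibitory receptor and the receptor for its own hormone stood in these groups.

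Lactotrophs of the anterior lobe make prolactin, the hormone that prepares the mammary gland and sustains milk production. Dopamine from the hypothalamus reaches them through the portal vessels and restrains them through the D2 receptor, a Gi-coupled receptor that lowers cAMP and opens potassium channels. Oestradiol acts through oestrogen receptor-α to raise *Prl* transcription and lactotroph number, and prolactin closes the loop by acting on dopamine neurons through its own receptor. *Drd2* is not particular to lactotrophs, because melanotrophs of the intermediate lobe are also held in check by dopamine.

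*Prl* (ENSMUSG00000021342) lies on chromosome 13 of GRCm38 (mm10), from 27057570 to 27065205 on the plus strand, with 4 annotated transcripts of up to 5 exons, 3 of them coding. *Drd2* (ENSMUSG00000032259) spans 49340627 to 49408177 of chromosome 9, plus strand, with 1 transcript of 2547 bases in 8 exons. *Prlr* (ENSMUSG00000005268) spans 10177238 to 10349180 of chromosome 15, plus strand, with 12 transcripts, 7 of them coding and between 564 and 9900 bases long, so its value sums long and short receptor forms that were not separated here. The transcripts of *Prl* and *Drd2* shared no stretch of at least 100 bases at 90% identity with another annotated gene. Those of *Prlr* did so with 4 genes, of which 1, *Opcml*, is listed, over 162 bases at 90.7% identity. *Prl* overlaps *Gm47888* on the minus strand and *Prlr* overlaps *Gm21973* on the plus strand, and neither of these is among the genes listed.

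The promoters of the highest and the dopamine-gated member are shown because POU1F1 (Pit-1), the pituitary factor that lactotrophs need, is known to bind next to the *Prl* start site. The letters ATGNATA and their reverse TATNCAT were searched on both strands in the 250 bases before each start of RefSeq promoters (GRCm38.p6), and matches stand in capitals. The RefSeq start used for *Drd2* lies upstream of the 49340627 given above, so its window does not adjoin that coordinate. The 250 bases before each start, plus strand and 5′ to 3′, read:

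Prl, chr13:27057320-27057569: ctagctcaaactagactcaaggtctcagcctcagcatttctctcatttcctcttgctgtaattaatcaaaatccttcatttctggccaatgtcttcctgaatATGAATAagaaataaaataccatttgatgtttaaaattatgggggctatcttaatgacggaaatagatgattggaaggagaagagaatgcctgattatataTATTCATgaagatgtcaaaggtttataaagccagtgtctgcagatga

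Drd2, chr9:49340153-49340402: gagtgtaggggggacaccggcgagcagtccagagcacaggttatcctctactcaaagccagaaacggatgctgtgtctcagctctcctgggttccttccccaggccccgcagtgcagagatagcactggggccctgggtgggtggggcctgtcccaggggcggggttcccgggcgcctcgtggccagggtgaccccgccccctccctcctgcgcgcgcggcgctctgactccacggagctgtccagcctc

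The *Prl* window held 2 matches, the first bases of which lie at -148 and -47 from the start. Of 32536 promoters of this length, 7.81% held at least 1 match and 1.20% at least 2. The *Drd2* window held 0 matches, as did the windows before 3 annotated *Prlr* starts. GC content was 35.2% in the *Prl* window and 68.8% in the *Drd2* window. The letters were chosen after the *Prl* sequence had been read, and a match is a description of the sequence only.

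Values were the authors' normalized expression, given per gene and mouse with a scaling that is not stated, and they summed to between 908897 and 1335782 per library. They are not read counts. In 1457 genes with 1 annotated transcript, between 81.3% and 93.8% of the low values lay within 0.15 of a whole multiple of 1 step per kilobase. If values are taken as scaled by transcript length, *Drd2* rested on about 458 to 3084 reads per library. *Pax7*, *Pcsk2*, *Nkx2-1* and *Rax* were lower in P357, a mutant on SD, and P392, a control on HFD, than in every other mouse. These are melanotroph and posterior lobe genes. *Col25a1* and *Slc1a3*, also of the posterior lobe, were 15.3 and 5.35 in P392, within the range of the other mice. A lobe score, the mean log2(value + 0.5) of *Pax7*, *Pcsk2*, *Nkx2-1*, *Rax*, *Col25a1* and *Slc1a3*, was 1.25 in P357, 1.70 in P392 and 2.68 to 3.21 in the other 14 mice. P357 also carried 8.94% of its sum in mitochondrially encoded genes and had 533 genes at 0. P392 went against its label in several genes described below, although its *Esr1* value of 39.6 lay among the controls. Results that rest on either library are therefore given with and without both. *Esr1* itself was 40.5, 46.6, 39.4 and 29.0 in controls on SD and 10.02, 22.2, 20.5 and 21.8 in mutants on SD. The groups on SD did not overlap, with mutants lower, as was the case for 4.5% of the genes tested. On HFD mutants (21.5 to 33.4) and controls (23.6 to 43.4) overlapped. A gene-level value includes exons outside the deleted part, and bulk tissue does not separate the cells that supplied *Esr1* RNA. The hormone cells of the anterior lobe are not where *Nkx2-1* is known to be expressed. These values are therefore not a measure of the deletion, and what lowered *Esr1* was not tested. *Prl*, *Drd2* and *Pou1f1*, which mark lactotrophs together, were above 0 in every library.

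*Prl* was the highest gene in the pituitary, and it did not separate the groups. It took 34.4% ± 3.36 (SD, n = 16) of the library sum, followed by *Gh*, the growth hormone gene, with 5.74% and *Pomc*, the precursor gene of ACTH and α-MSH, with 1.62%. In controls on SD, *Prl* stood at 313796, 285147, 330789 and 304109, and in controls on HFD at 291297, 370233, 262175 and 438889. In mutants on SD it was 496854, 303165, 345615 and 347741, and in mutants on HFD 423831, 377532, 333310 and 294311. P357 and P392 held the highest values of their groups and of all mice, and the ranges of all 4 groups overlapped. Group means rose in the order control SD (308460 ± 19057, SD, n = 4), control HFD (340649 ± 79834), mutant HFD (357246 ± 55913) and mutant SD (373344 ± 84861), and no neighbouring pair in this order differed beyond its spread.

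As a share of the library sum, which removes the scale of each library, *Prl* ran from 28.8% to 40.6%. Controls on SD gave it 32.8%, 30.8%, 33.9% and 33.4% of their sums, and controls on HFD 30.9%, 37.7%, 28.8% and 40.6%. Mutants on SD gave it 37.2%, 31.8%, 33.7% and 35.4%, and mutants on HFD 39.4%, 37.3%, 35.1% and 31.1%. P357, whose deposited value was the highest of all, stood only the fifth in share, because its library sum was also the highest. P392 kept the highest share of the 16 mice.

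**Figure D1:**
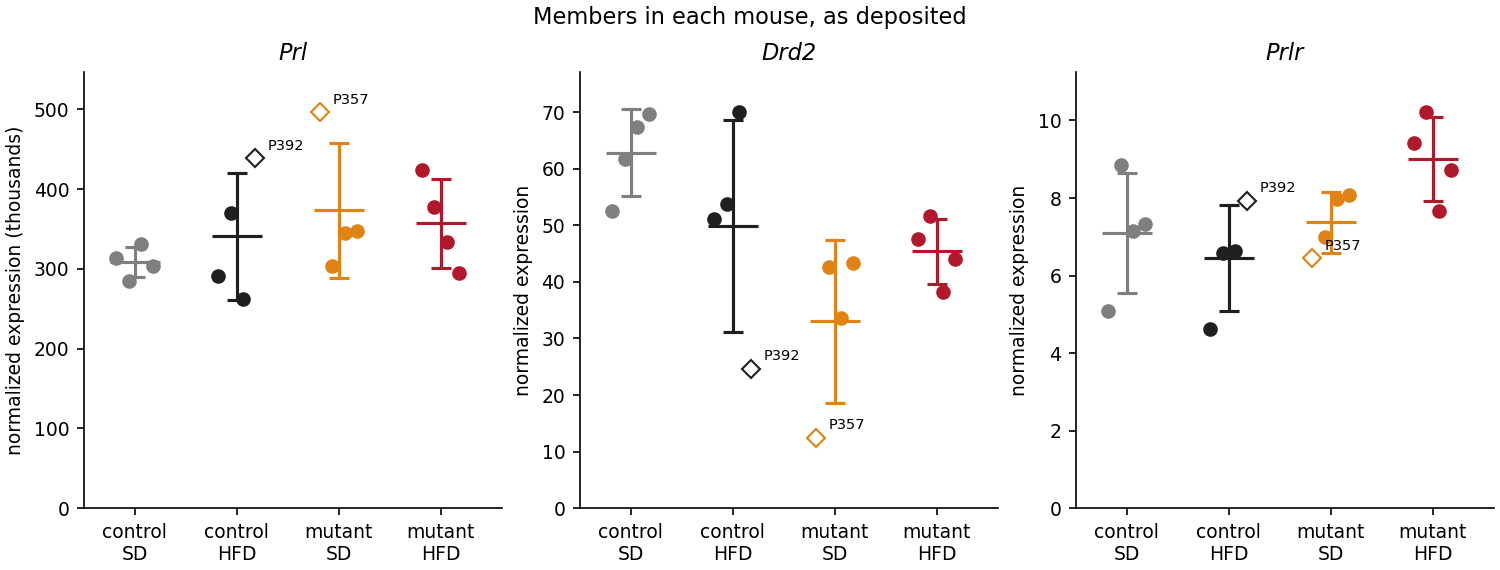
Normalized expression of Prl (in units of 1000), Drd2 and Prlr in each mouse as deposited, by group; points are mice, the bar and whiskers are the mean and SD of 4 mice, and open diamonds mark P357 and P392. Prl overlaps between all groups, Drd2 in mutants on SD lies below every control on SD (at most 43.3 against at least 52.5), and Prlr is highest in mutants on HFD.

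**Figure D2:**
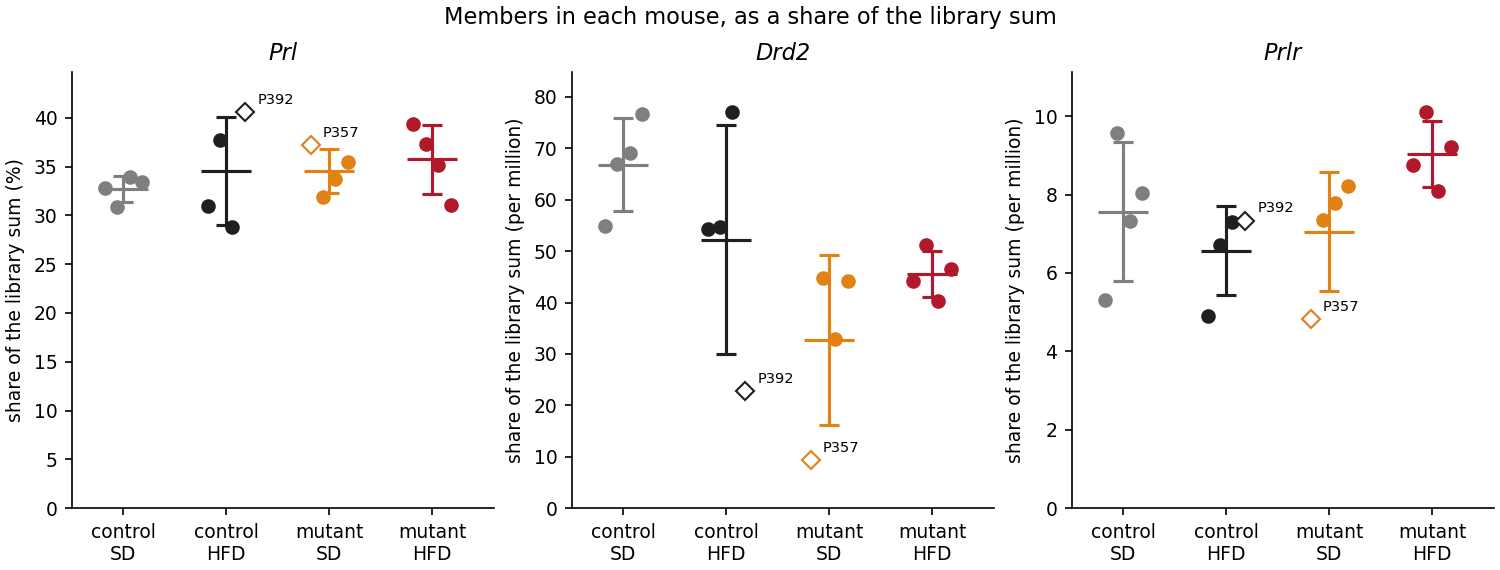
The same values as a share of each library's sum, in per cent for Prl and parts per 1000000 (ppm) for Drd2 and Prlr, with the mean and SD of 4 mice and P357 and P392 as open diamonds. Prl stays between 28.8% and 40.6% in all 16 mice, and mutants on HFD lie above every control on HFD for Prlr (at least 8.09 against at most 7.34 ppm).

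Between genotypes the share of *Prl* differed by 1.81 percentage points on SD (mutants higher, two-sided exact permutation test, p = 0.257) and by 1.20 points on HFD (p = 0.771 by the same exact test). HFD minus SD was 1.19 points in mutants (exact permutation p = 0.629) and 1.80 points in controls (exact permutation p = 0.543). With 4 mice against 4, the smallest p this test can give is 0.0286. On the log2(value + 0.5) scale, limma gave a genotype difference of 0.25 on SD (standard error 0.51, 95% interval -0.83 to 1.338, adjusted p = 0.817) and 0.08 on HFD (95% interval -1.001 to 1.17, adjusted p = 0.982). These intervals come from a fit that ties the spread of a gene to its level. Without this trend the standard error was 0.18 in both, and the adjusted p on SD was 0.445 (limma). As folds, the trend intervals ran from 0.561 to 2.53 on SD and from 0.4995 to 2.25 on HFD, and differences within them are not excluded by this fit. The width depended on the genes that entered the trend, since the standard error was 0.28 with a filter at a mean of 5 and 2.31 with no filter, and *Prl* passed in neither. Without P357 and P392 the log2 difference of *Prl* was 0.11 on SD and 0.22 on HFD, and the difference in share on SD was 0.930 points. As a share, the log2 difference on SD was 0.076. *Prl* did not pass in any of the 7 comparisons, which were genotype on each diet and over both, diet in each genotype and over both, and their interaction.

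*Drd2* was lower in mutants than in controls on SD, without overlap. Its values were 52.5, 61.8, 67.4 and 69.7 in controls on SD and 12.4, 42.6, 33.7 and 43.3 in mutants on SD. On HFD they were 51.2, 53.7, 70.1 and 24.7 in controls and 47.7, 51.7, 38.2 and 44.0 in mutants. Both of the values under 25 belong to P357 and P392, the libraries with the low lobe scores. Without them, mutants on SD still stood at 33.7 to 43.3 and controls on HFD at 51.2 to 70.1, just overlapping the 38.2 to 51.7 of mutants on HFD. Group means fell in the order control SD (62.9 ± 7.67, SD, n = 4), control HFD (49.9 ± 18.8), mutant HFD (45.4 ± 5.72) and mutant SD (33.0 ± 14.4), and neighbours in this order overlapped.

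On SD the log2 difference of *Drd2* was -1.06 (standard error 0.34, 95% interval -1.78 to -0.34), which is 0.480 of the control level, with an unadjusted p of 0.00669 and an adjusted p of 0.110 from limma. It did not pass, whereas 1.84% of the genes tested did. The exact permutation test gave p = 0.0286, the smallest possible here, and 4.5% of the genes tested lay lower in every mutant than in every control on SD. As a share of the library sum the same separation held, at 54.9 to 76.6 ppm (units per 1000000 of the sum) in controls and 9.31 to 44.8 ppm in mutants, where 8.87% of the genes tested were separated in this direction. On HFD the log2 difference was -0.05 (95% interval -0.77 to 0.67, adjusted p = 0.984 from limma), and 0% of the genes tested passed (1461 had an unadjusted p under 0.05). Over both diets it was -0.55 (95% interval -1.06 to -0.04, adjusted p = 0.182 from limma), where 6.54% of the genes tested passed. HFD minus SD was 0.59 in mutants (95% interval -0.13 to 1.31, adjusted p = 0.813 from limma) and -0.42 in controls (95% interval -1.14 to 0.30, adjusted p = 0.998 from limma). The genes passing for diet were 0% in mutants (717 at an unadjusted p under 0.05), 0% in controls (592 likewise) and 0.00697% over both genotypes. The interaction of genotype and diet was 1.01 (95% interval -0.01 to 2.03, adjusted p = 0.924 from limma), where 0% of the genes tested passed and 602 had an unadjusted p under 0.05. Without P357 and P392 these values shrank to 0.19 for diet in mutants, -0.11 in controls and 0.30 for the interaction.

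Lobe content moved with *Drd2* and changed its standing. *Pax7* and *Pcsk2*, which mark melanotrophs and were above 0 throughout, summed to 57.1 to 84.4 in controls on SD, 11.1 to 77.1 in mutants on SD, 31.4 to 165 in controls on HFD and 91.3 to 146 in mutants on HFD. With the lobe score as a covariate, mutants were lower than controls by -0.65 on SD (standard error 0.10, adjusted p = 0.0114 from limma) and by -0.54 on HFD (standard error 0.10, adjusted p = 0.0234 from limma). Over both diets the difference was -0.59 (95% interval -0.74 to -0.45, adjusted p = 0.000344 from limma), which is 0.663 of the control level. In these fits 0.753%, 1.2% and 10.9% of the genes tested passed. The diet terms shrank to -0.06 in mutants and -0.16 in controls, and the interaction to 0.10, and none of the 3 passed. Leaving out P357 and P392 instead gave -0.65 on SD (adjusted p = 0.0162 from limma), -0.35 on HFD (adjusted p = 0.164) and -0.50 over both diets (adjusted p = 0.00380), against 6.7%, 7.42% and 18.6% of genes passing. Leaving out P392 alone was enough for *Drd2* to pass on SD (adjusted p = 0.0473) and over both diets (log2 difference -0.71, adjusted p = 0.0412 from limma). In this fit 777 and 1931 of the 14345 genes tested passed. Of 16 fits with any 1 mouse left out, it was the only 1 in which *Drd2* passed in either comparison. The highest adjusted p among the 16 was 0.244 on SD and 0.333 over both diets (limma). P392 is not in the comparison on SD, so the difference there stayed at -1.06 and only the spread shared by all groups changed. Among the 14 other mice the score varied little, and *Drd2* followed it more closely within a genotype than across both, with a Pearson correlation of 0.839 over 7 controls, 0.661 over 7 mutants and 0.144 over all 14. These are descriptions over mice that also share their diets and their dissection. The score contains *Nkx2-1*, whose lineage carries the deletion. It also contains *Col25a1*, which was 6.06 to 11.9 in controls and 13.9 to 17.4 in mutants on SD. On HFD *Col25a1* was 7.49 to 15.3 in controls and 14.5 to 18.2 in mutants. The posterior lobe genes of the score summed to 17.0 to 21.0 and 17.6 to 27.9 on SD, in controls and mutants respectively. On HFD these sums were 18.4 to 20.6 and 25.2 to 30.2. Lobe content and genotype are therefore not fully separate measures. In bulk tissue, fewer cells of a type and less RNA per cell cannot be told apart.

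**Figure D3:**
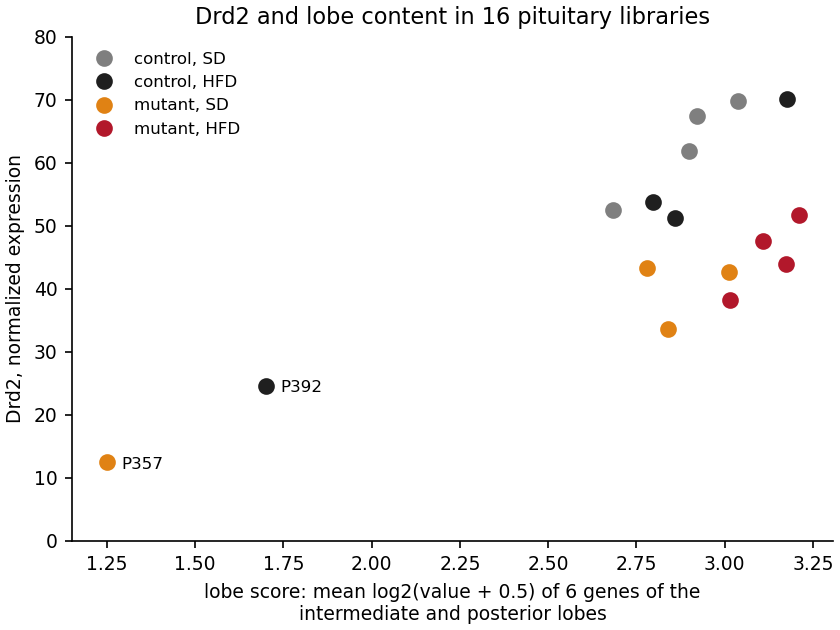
Drd2 (normalized expression) against the lobe score, the mean log2(value + 0.5) of 6 genes of the intermediate and posterior lobes, for 16 mice coloured by group. P357 (12.4) and P392 (24.7) sit apart at scores of 1.25 and 1.70, and among the other 14 mice, at scores of 2.68 to 3.21, the 7 mutants (33.7 to 51.7) lie below the 7 controls (51.2 to 70.1) but for 1 mutant just above the lowest control.

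*Pou1f1*, which marks the lineage of lactotrophs, somatotrophs and thyrotrophs, gives a second yardstick for *Drd2*. Per 1000 units of *Pou1f1*, *Drd2* was 183 to 248 in controls on SD and 56.4 to 190 in mutants on SD, so the groups overlapped on this scale. On HFD the same ratio was 74.7 to 245 in controls and 136 to 230 in mutants. *Pou1f1* itself was lower on average in mutants, and its values are given below.

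*Prlr* was low in the pituitary and highest in mutants on HFD. It ranked 9542 by mean level among the genes listed, against 2241 for *Drd2*. Its values were 5.09, 8.84, 7.16 and 7.32 in controls on SD and 6.45, 7.004, 7.98 and 8.08 in mutants on SD. On HFD they were 4.62, 6.59, 6.64 and 7.93 in controls and 9.41, 10.2, 7.68 and 8.72 in mutants. Of the mutants on HFD, 3 lay above every control on HFD, and the fourth fell below P392 alone. As a share of the library sum, mutants on HFD (8.09 to 10.1 ppm) did not overlap with controls on HFD (4.91 to 7.34 ppm), as was the case for 3.38% of the genes tested in this direction (exact permutation test, p = 0.0286).

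On HFD the log2 difference of *Prlr* was 0.47 (standard error 0.18, 95% interval 0.10 to 0.84), or 1.38-fold, with an unadjusted p of 0.0169 and an adjusted p of 0.364 from limma. Without P357 and P392 it was 0.57 (95% interval 0.19 to 0.95, adjusted p = 0.0685 from limma). On SD it was 0.07 (95% interval -0.30 to 0.44, adjusted p = 0.855 from limma). This value turned to -0.09 when each library was scaled to its sum, a scaling that moved the median of all tested genes to -0.17. Over both diets the difference was 0.27 (95% interval 0.01 to 0.53, adjusted p = 0.211 from limma). HFD minus SD was 0.27 in mutants (adjusted p = 0.813) and -0.13 in controls (adjusted p = 0.999 from limma), and their interaction was 0.40 (95% interval -0.13 to 0.92, adjusted p = 0.924 from limma). Group means ran from mutant HFD (9.01 ± 1.08, SD, n = 4) through mutant SD (7.38 ± 0.786) and control SD (7.10 ± 1.54) to control HFD (6.45 ± 1.36), and neighbours overlapped.

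**Figure D4:**
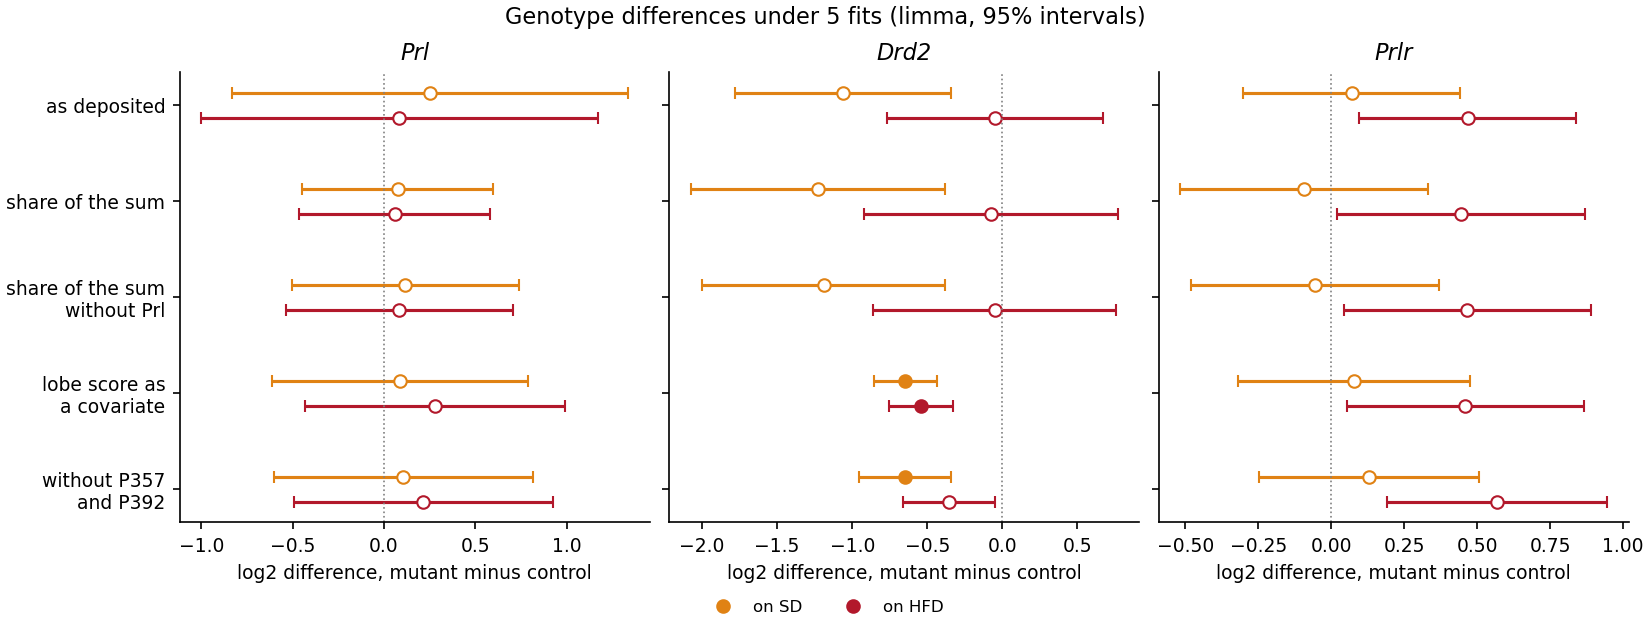
Log2 difference, mutant minus control, of each member on SD and on HFD under 5 limma fits, with 95% intervals; filled points have an adjusted p under 0.05. Drd2 is filled in 3 places, on SD (-0.65) and HFD (-0.54) with the lobe score as a covariate and on SD (-0.65) without P357 and P392, and no point of Prl or Prlr is filled.

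Around the members, 9 lists of pathway genes were examined, with 84 of 100 distinct genes (members included) above the filter. The lists were chosen with earlier results of these data known. Their counts and medians beside those of all genes are therefore descriptions, not tests of a pathway. Of 8 peptides that release prolactin, 6 were tested, and 3 rose in mutants on SD and 0 fell, and the same number passed over both diets. Their median log2 difference on SD was 1.85, against -0.0071 over all genes tested, of which 1.37% rose and 0.474% fell. *Prlh* encodes prolactin-releasing peptide. It was listed at 0 in 3 controls on SD and at 17.1 in P356, while mutants on SD had 322, 236, 418 and 358.05. Controls on HFD had 7.71, 0, 0 and 556, the last being P392, and mutants on HFD 317, 380, 363 and 180. Apart from P392, no control came near a mutant. The log2(value + 0.5) difference of *Prlh* was 8.07 on SD (standard error 1.69, adjusted p = 0.0297 from limma) and 5.68 on HFD (adjusted p = 0.256 from limma), sizes that depend on the 0.5 added to values of 0. Without P357 and P392 it was 8.08 and 7.88 (adjusted p = 0.00158 and 0.00126 from limma), where 6.7% and 7.42% of the genes tested passed.

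*Gal* encodes galanin, a peptide of lactotrophs that oestrogen is known to induce. It was 1294, 278, 193 and 94.7 in controls on SD and 3910, 1849, 2583 and 2265 in mutants on SD. On HFD it was 652, 247, 295 and 2548 in controls and 2579, 1949, 2149 and 1819 in mutants. P356 and P392 held the 2 highest control values, and only P392 reached the mutants. The log2 difference was 3.16 on SD (standard error 0.70, adjusted p = 0.0363 from limma) and 2.50 over both diets (adjusted p = 0.0101 from limma). *Vip*, the gene for vasoactive intestinal peptide, was 4.65, 2.63, 2.57 and 2.91 in controls on SD and 37.8, 9.15, 24.8 and 24.7 in mutants on SD. On HFD it ran from 2.21 to 5.004 in controls and from 6.60 to 17.0 in mutants, so mutants exceeded controls without overlap on both diets, P392 included. Its log2 difference was 2.61 on SD (adjusted p = 0.00825) and 2.07 over both diets (standard error 0.27, adjusted p = 0.00161 from limma). Lying higher in every mutant than in every control on SD was the case for 6.09% of the genes tested. On HFD this was computed only for values as shares of the sum, at 3.38%, and not for values as deposited. With any 1 mouse left out, *Vip* passed on SD in all 16 fits, whereas *Prlh* failed in 7 and *Gal* in 11.

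Of 12 receptors for peptides that act on prolactin release, in either direction, 6 were tested. On SD 0 passed and over both diets 3 rose, where 4.48% of all genes tested rose. *Ednra* and *Ednrb* encode the endothelin receptors, and *Oxtr* the oxytocin receptor. *Ednra* was 2.41 to 3.56 in controls on SD, 4.50 to 5.25 in mutants on SD, 2.23 to 5.14 in controls on HFD and 4.85 to 10.1 in mutants on HFD. Its log2 difference over both diets was 0.90 (standard error 0.17, adjusted p = 0.00706 from limma), and that of *Ednrb* 0.35 (standard error 0.09, adjusted p = 0.0327). *Oxtr* was 8.89, 0.590, 0.29995 and 0.667 in controls on SD and 3.56, 11.3, 9.86 and 14.5 in mutants on SD. It was 4.03, 1.06, 0.721 and 28.1 in controls on HFD and 20.7, 18.1, 18.8 and 7.56 in mutants on HFD, and differed by 2.19 over both diets (standard error 0.62, adjusted p = 0.0470 from limma). P356 and P392 again held the highest values of *Oxtr* among the controls of their diets. Endothelial markers (*Pecam1*, *Cdh5*, *Plvap*, *Kdr* and *Emcn*, 5 of 5 listed) summed to 101 to 123 in controls on SD and 154 to 206 in mutants on SD, and to 94.3 to 183 and 149 to 164 on HFD. Immune markers (*Ptprc*, *C1qa*, *C1qb*, *Ctss* and *Cd74*) summed to 131 to 239 and 190 to 816 on SD, and to 113 to 386 and 211 to 686 on HFD, in controls and mutants respectively. The part of either cell type in the endothelin receptor and growth factor values was not tested.

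Downstream of the D2 receptor, 19 of 19 listed genes were tested. On SD 1 rose and 0 fell (1.37% and 0.474% of all genes), and over both diets 2 rose and 1 fell (4.48% and 2.06% of all genes), with a median log2 difference of -0.06 against 0.0017 over all tested genes. *Grk3*, a kinase that phosphorylates active receptors and so desensitises them, was 19.8, 18.2, 14.7 and 14.1 in controls on SD and 32.9, 31.6, 25.3 and 23.7 in mutants on SD. The groups on SD did not overlap, as for 6.09% of the genes tested in this direction. Mutants were higher by 0.75 on the log2 scale (standard error 0.16, adjusted p = 0.0309 from limma). On HFD *Grk3* was 17.6, 18.7, 15.0 and 25.4 in controls and 20.7 to 23.9 in mutants, so that P392 exceeded all 4 mutants, and the difference over both diets was 0.49 (adjusted p = 0.0179 from limma). *Gnai1*, an inhibitory G protein subunit, was 3.38 to 4.30 in controls on SD and 3.84, 9.38, 7.27 and 9.78 in mutants on SD. It was 4.02, 4.29, 4.54 and 10.9 in controls on HFD and 8.35 to 11.99 in mutants on HFD. P357 stood with the controls and P392 with the mutants, and the difference over both diets, 0.82 (standard error 0.21, adjusted p = 0.0283 from limma), became 1.12 without these 2 (adjusted p = 1.12e-05 from limma). *Kcnj3*, a channel subunit opened by Gi signalling, fell by 0.62 over both diets (standard error 0.15, adjusted p = 0.0277 from limma).

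Genes of dopamine supply gave no call in pituitary RNA. The dopamine that restrains lactotrophs comes from the hypothalamus, which these libraries do not sample. Its supply could therefore not be read from them. Of 11 genes for dopamine synthesis, transport, breakdown and other receptors, 5 were tested and 0 passed in each direction in every comparison. At most 6.54% of all genes tested passed in a comparison. *Maob* and *Maoa*, which break down dopamine, had log2 differences over both diets of 0.34 and -0.10 (adjusted p of 0.101 and 0.573 from limma). *Th*, the rate-limiting enzyme of dopamine synthesis, lay below the filter.

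Of 16 signal transducers of the prolactin receptor, 0 passed in any comparison, where at most 6.54% of all genes tested passed. *Stat5a*, the main transcription factor of this pathway, was 124, 26.2, 38.9 and 39.1 in controls on SD and 81.8, 125, 129 and 127 in mutants on SD. On HFD it was 136, 56.4, 28.5 and 121 in controls and 97.7, 106, 104 and 110 in mutants. P356, P385 and P392 stood at 121 or more, among the mutants or above, while the other 5 controls were at 56.4 or less. The log2 difference was 1.26 on SD (standard error 0.45, adjusted p = 0.145 from limma) and 0.90 over both diets (adjusted p = 0.107). *Socs2*, a feedback inhibitor that STAT5 induces, differed by 0.54 on SD (adjusted p = 0.114) and by 0.61 without P357 and P392 (adjusted p = 0.00960 from limma). In the latter fit 6.7% of the genes tested passed on SD. P392, left out there, held the highest *Socs2* value of all mice (105), so this pass is not separate support. *Stat3* differed by -0.18 on SD (adjusted p = 0.652 from limma).

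Of 14 transcription factors of the *Prl* gene, 12 were tested and 1 fell on SD, where 0.474% of all genes tested fell. This was *Esr1* (log2 difference -1.09, standard error 0.25, adjusted p = 0.0409 from limma). With any 1 mouse left out this call failed in 10 of 16 fits, and that of *Grk3* on SD in 6. Over both diets *Esr1* fell by 0.71 (adjusted p = 0.0280) and *Cebpb*, a factor of the acute-phase response, rose by 0.53 (standard error 0.14, adjusted p = 0.0315 from limma). There 2.06% of all genes tested fell and 4.48% rose. *Pou1f1* was 212, 328, 367 and 331 in controls on SD and 221, 224, 237 and 239 in mutants on SD. On HFD it was 209, 345, 323 and 330 in controls and 261, 225, 281 and 211 in mutants. P356 (212) and P385 (209) were the low controls, near or below the lowest mutant (211), so controls and mutants overlapped. The other 6 controls exceeded all 8 mutants, a split made after seeing these same values. Its log2 difference was -0.40 on SD (standard error 0.17, adjusted p = 0.221) and -0.34 over both diets (adjusted p = 0.110 from limma). *Pitx1*, a homeodomain factor of the pituitary, differed by -0.04 over both diets (adjusted p = 0.746 from limma).

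Of 13 genes of lactotroph growth control, all tested, 4 rose and 1 fell over both diets, and 0 passed on SD. The median log2 difference over both diets was 0.21, where 4.48% of all genes tested rose and 2.06% fell. *Vegfa*, an inducer of vessel growth, was 79.1, 32.6, 44.5 and 44.5 in controls on SD and 126, 116, 123 and 102 in mutants on SD. On HFD it was 56.2, 50.4, 35.9 and 160 in controls and 127, 129, 129 and 85.5 in mutants, and its difference over both diets was 1.07 (standard error 0.25, adjusted p = 0.0190 from limma). *Nog*, the gene for the BMP antagonist noggin, ran from 12.9 to 20.5 in controls on SD and 35.2 to 47.7 in mutants on SD, and from 8.98 to 50.9 and 36.8 to 73.1 on HFD, with a difference of 1.38 (standard error 0.27, adjusted p = 0.00929 from limma). *Tgfb2* and *Tgfb1*, the latter a known brake on lactotroph growth, rose by 1.12 and 0.59 (adjusted p of 0.0262 and 0.0333 from limma). *Cdkn1b*, an inhibitor of the cell cycle, fell by 0.18 (standard error 0.05, adjusted p = 0.0457 from limma). In *Vegfa* and *Nog*, P392 was the 1 control that reached the mutants.

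Of 3 genes that oestrogen induces in the pituitary, *Gal* rose on SD, and *Gal* and *Greb1* rose over both diets. Of all genes tested, 1.37% and 4.48% rose in these comparisons. *Greb1* was 106, 53.6, 39.8 and 49.3 in controls on SD and 105, 104, 104 and 111 in mutants on SD. It was 100.4, 58.1, 42.3 and 111 in controls on HFD and 108, 118, 101 and 99.9 in mutants on HFD. As with *Stat5a*, P356, P385 and P392 lay among the mutants and the other 5 controls well below. Its difference over both diets was 0.71 (standard error 0.20, adjusted p = 0.0466 from limma), and that of *Pgr*, the progesterone receptor gene, was 0.92 (adjusted p = 0.0523 from limma). *Prl3d1* and *Prl8a1*, relatives of prolactin known from the placenta, were the tested genes of the wider family. In any comparison 0 of 2 passed, where at most 6.54% of all genes tested did.

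Over both diets, *Prlh*, *Gal*, *Vip*, *Ednra*, *Grk3*, *Vegfa* and *Nog* passed with any 1 mouse left out. The other 10 genes that passed there failed in 6 (*Esr1*) to 13 (*Oxtr*, *Greb1* and *Cdkn1b*) of 16 such fits. Without P357 and P392 all 17 passed, the highest adjusted p being 0.0208 (*Esr1* and *Cdkn1b*, limma), where 18.6% of all genes tested passed. P392 was set aside partly because it lay with the mutants in several of these genes. Their passing in this fit is therefore not separate support, *Prlh* and *Gnai1* above included.

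**Figure D5:**
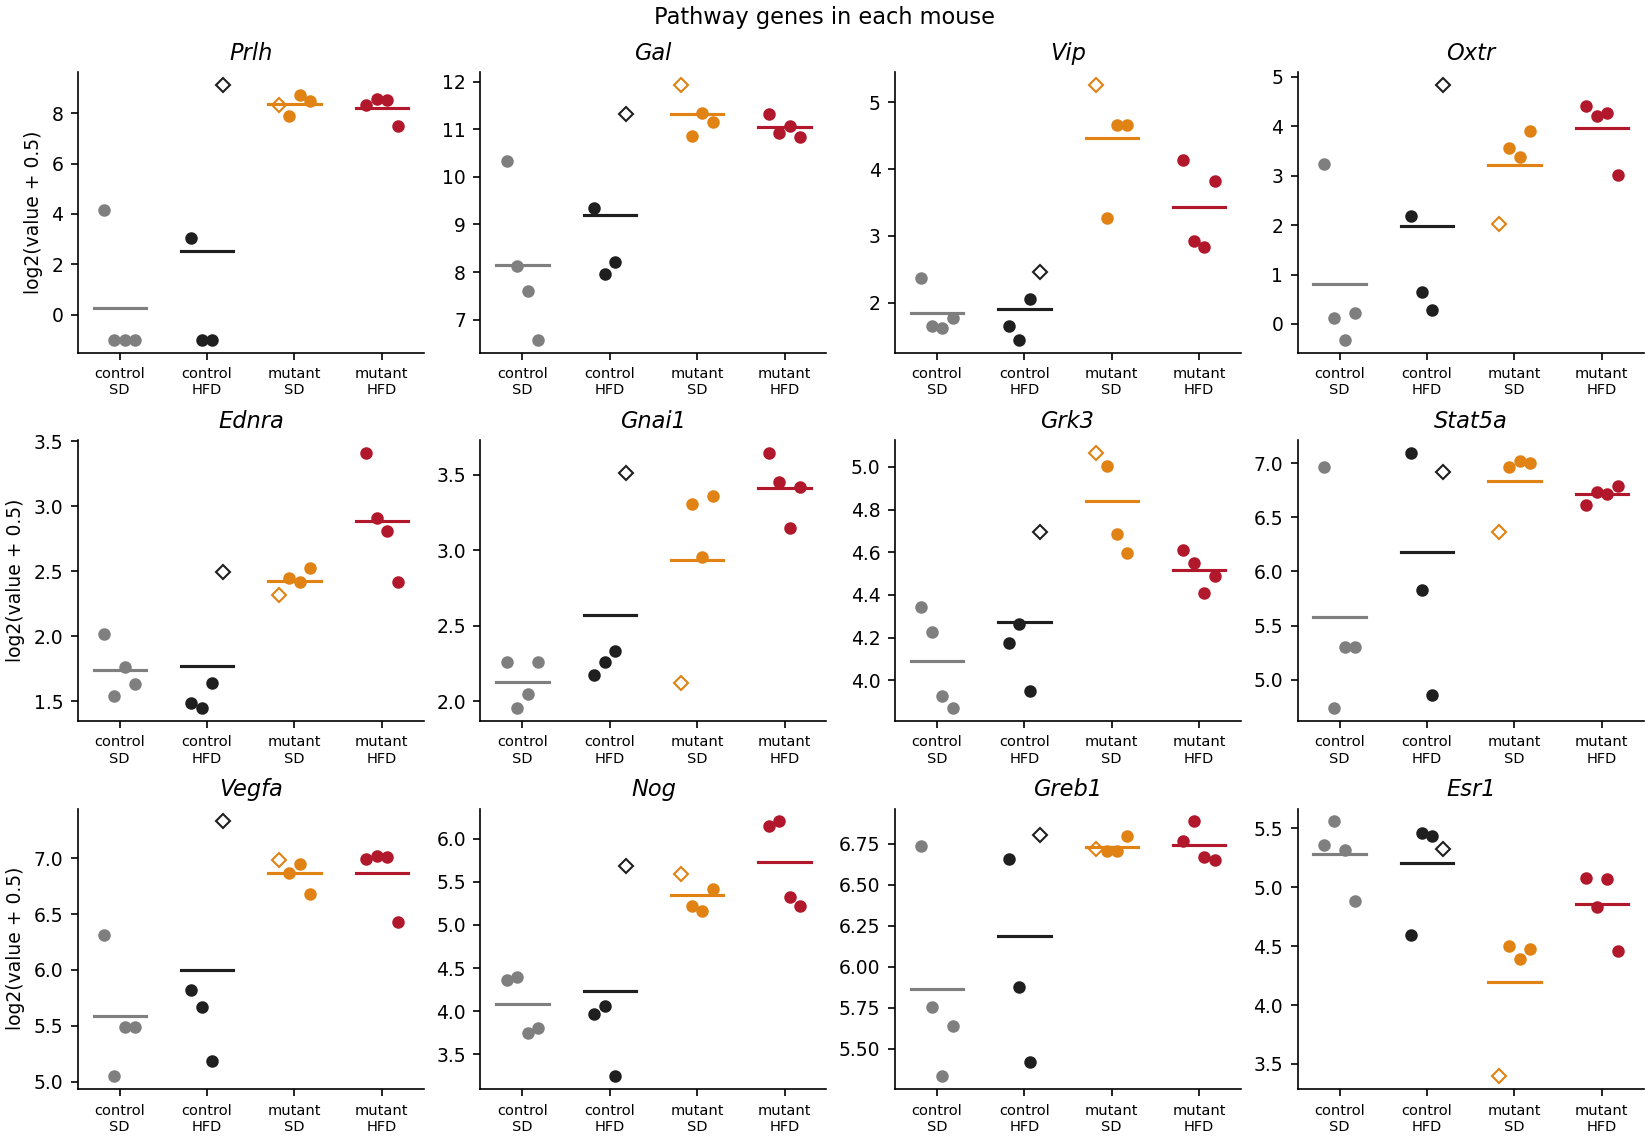
Log2(value + 0.5) of 12 pathway genes in each mouse by group, each panel on its own axis; points are mice, lines are group means and open diamonds mark P357 and P392. Prlh, Gal and Vip are higher in mutants on SD than in every control on SD, and P392, a control on HFD, lies with the mutants for most of the genes but not for Vip, at 5.004 in normalized expression, or Esr1, at 39.6.

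The genes most like each member over the 16 mice were found by the Pearson correlation of log2 values, given here as descriptions. For *Prl* they were *Lhfpl3*, *Cd63*, *Pgm2*, *Ikbip* and *Akr1cl* (0.847 to 0.885), and without P357 and P392 *Col14a1*, *Iqgap3*, *mt-Nd5*, *Dynlrb1* and *mt-Nd6* (0.822 to 0.861), so none was shared. For *Drd2* they were *Lrrn2*, *Sparcl1*, *Pcdhb1*, *Pm20d2* and *Ptpn13* (0.946 to 0.963), and over 14 mice *Chrd*, *Nbea*, *Hepacam2*, *Thpo* and *Six3* (0.904 to 0.930), again with none shared. For *Prlr* they were *Lbh*, *Dusp10*, *Gm1043*, *Rassf3* and *Grn* (0.8285 to 0.867), and over 14 mice *Olfm1*, *Dnm1*, *Lbh*, *Mxi1* and *Dusp10* (0.877 to 0.905), with *Lbh* and *Dusp10* in both.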

How the data were processed

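Pituitary total RNA of 16 female mice was sequenced as 1 library per mouse (NEBNext Ultra II, NovaSeq). Per the labels and methods, kallisto assigned reads to mm10 transcripts summed by gene, and sleuth was the authors' test. Tool versions, annotation release and strand setting are not given in the sources used here. What the authors deposited is a normalized signal per gene, never negative, whose scaling is not stated, so it was not treated as counts. The diet and genotype came from the labels, and age and time on HFD from the study's methods. The animals are separate mice, and no mouse was left out.

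Symbols were found for 17351 of 17362 identifiers, and positions come from GENCODE M21 (GRCm38). Genes below a mean of 1 were dropped, which left 14345. Their log2(value + 0.5) entered limma 3.58.1, run in R 4.3.3 (1 mean per group, eBayes with trend, Benjamini-Hochberg over all genes tested within each comparison, threshold 0.05). Exact permutation tests, two-sided, compared the members by group. On simulated data from 14345 genes for the genotype comparison on SD, 84.0% of 200 genes changed by 1 on the log2 scale and 98.5% of those changed by 2 were recovered, with 5.08% and 6.19% of calls false. The changed genes were drawn only above a set mean level. Noise was drawn independently for each gene and mouse, without libraries that shift many genes together, as P357 and P392 do. These rates therefore need not hold for the real data. Python 3.11.15, pandas 2.3.3, numpy 2.4.6, matplotlib 3.10.9 and BLAST 2.17.0 (90% identity, 100 bases) were used. Promoters are RefSeq's.

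The members and lists were chosen with earlier results of these data known. Named genes were the 3 members, list genes past the threshold (or the 3 highest by mean where fewer passed), and the 5 genes most correlated with each member. *Gh*, *Pomc*, *Th*, *Opcml* and *Socs1* were named outside this rule. A pair of genes that the rule names is not reported here. Alternatives were filters at means of 0.1 and 5 and none, pseudocounts of 0.1 and 1, 3 other scalings, no trend, the mice compared alone, covariates for lobe score and animal-number range, leaving out P357 and P392, and leaving out each mouse in turn. The joint use of lobe score and scaling, and leaving out mice for pathway genes, were chosen after seeing the data.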

Additional observations from a re-analysis of the deposited data

Results flagged for a closer look

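In 132 groups of 4 mice (33 measures in 4 groups), 21 held a mouse whose gap to the other 3 exceeded Dixon's 95% critical value, where chance gives about 1 in 20, or 6.6. Many of these measures move together. No explanation was tested.

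P392, a control on HFD, was high in *Prlh* at 556 (others 0 to 7.71), *Oxtr* at 28.1 (0.721 to 4.03), *Ednra* at 5.14 (2.23 to 2.63), *Gnai1* at 10.9 (4.02 to 4.54), *Nog* at 50.9 (8.98 to 16.1), *Tgfb2* at 11.5 (2.24 to 3.43) and *Vegfa* at 160 (35.9 to 56.2). P356, a control on SD, was high in *Gal* at 1294 (94.7 to 278), *Prlh* at 17.1 (others listed at 0), *Vip* at 4.65 (2.57 to 2.91), *Oxtr* at 8.89 (0.29995 to 0.667), *Stat5a* at 124 (26.2 to 39.1), *Socs1*, an inhibitor of cytokine signalling, at 28.7 (4.46 to 5.62) and *Pgr* at 17.4 (4.56 to 5.93).

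P357, a mutant on SD, was low in the lobe score at 1.25 (2.78 to 3.01), in *Esr1* at 10.02 (20.5 to 22.2) and in *Stat5a* at 81.8 (125 to 129), and high in the share of mitochondrially encoded genes at 8.94% (3.82% to 3.97%). *Pou1f1* was low in P385, a control on HFD, at 209 (323 to 345). *Vegfa* was low in P388, a mutant on HFD, at 85.5 (127 to 129), and *Greb1* was slightly high in P384, a mutant on SD, at 111 (104 to 105). *Prl*, *Drd2* and *Prlr* held no such mouse in any group, as deposited or as shares.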

How the results depend on the processing

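Values are log2 differences unless given otherwise. With the lobe score as a covariate, *Drd2* passed on SD (-0.65), on HFD (-0.54) and over both diets (-0.59), and with scaling to the sum without *Prl* added, a fit chosen after seeing the data, it also passed (-0.72, -0.61 and -0.67). Without P357 and P392 it passed on SD (-0.65) and over both diets (-0.50). Its value on HFD turned to 0.17 in a fit that includes the animal number range, its diet value in mutants to -0.062 with the lobe score and -0.025 with scaling added, and its diet value over both genotypes to -0.022 with the number range, -0.11 with the lobe score and -0.083 with lobe score and scaling. *Prl* turned on HFD to -0.077 with the number range. Its diet value in mutants turned to 0.046 when scaled to the sum, 0.073 without *Prl* in the sum, 0.21 with the lobe score, 0.094 without P357 and P392 and 0.24 with lobe score and scaling. Its diet value in controls turned to -0.016 without those mice, and its interaction to 0.19 with the lobe score, 0.11 without those mice and 0.20 with lobe score and scaling. *Prlr* on SD turned to -0.093 scaled to the sum and -0.056 without *Prl* in the sum, and its diet value over both genotypes to -0.0093 without P357 and P392. None of these turned values passed. Without those mice, the *Prl* share differed by -0.225 percentage points between diets in controls.

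Of 84 pathway genes tested, 5 passed on SD (1.84% of all genes), 3 after scaling to the sum without *Prl* and 16 without P357 and P392 (6.7% of all genes). On HFD 0 passed (0% of all genes), and 18 without those mice (7.42%). Over both diets 17 passed (6.54%), and 11 and 38 under the same alternatives (18.6% of all genes for the latter). That scaling ended the calls of *Esr1* and *Grk3* on SD (adjusted p of 0.0597 and 0.0648 from limma) and, over both diets, of *Ednrb* (0.125), *Tgfb1* (0.0823), *Cdkn1b* (0.0752), *Greb1* (0.0768), *Oxtr* (0.0615), *Cebpb* (0.0643) and *Gnai1* (0.0656). Over all genes on SD, 196 of 264 calls were higher in mutants, and 66 of 117 after scaling to the sum without *Prl*, which moved the median of all genes to -0.13.

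With any 1 mouse left out, *Prl* ran from -0.031 to 0.22 for genotype on HFD, from -0.14 to 0.094 for diet in mutants, from -0.016 to 0.23 in controls and from -0.034 to 0.11 over both genotypes. *Drd2* ran from -1.24 to -0.65 for genotype on SD, -0.35 to 0.14 on HFD and -0.71 to -0.35 over both diets, and from -0.11 to 0.24 for diet over both genotypes. *Prlr* ran from -0.071 to 0.18 for genotype on SD and from -0.27 to 0.0097 for diet in controls. The *Prl* share ran from -0.692 to 3.23 percentage points for genotype on HFD, and for diet from -0.0213 to 2.73 in mutants and -0.225 to 3.69 in controls. Filters, pseudocounts, median scaling, no trend and fits of the compared mice alone left every member on the same side of the threshold and with the same direction.

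No paired analysis was possible because the labels number no mice across groups. Animal numbers fall in a lower and an upper range, where 3 controls but only 1 mutant on SD, P357, had lower numbers. Fitted within ranges, *Drd2* differed by -1.28 on SD (adjusted p = 0.0637 from limma) and *Prl* by 0.41. What the numbers stand for is not given in the sources used here. Depth was estimated from value steps, not counted, so no counting interval is given, and 4 mice a group limit the precision.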
